A study of Mus musculus with 18 samples.

Results

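Small intestinal organoids cultured with 4-hydroxytamoxifen (4-OHT) were compared with organoids cultured without it, on 2 of the 18 arrays of a mouse series on how Apc mutations act in different cell types. The 2 arrays were found by their sample titles, and each arm had 1 array. The other arrays hold reprogrammed colon tumour cells (RTCs, tumour cells taken through induced pluripotency), 2 derivatives of them (#45 and #9), embryonic stem cells of 3 Apc genotypes, fibroblasts grown from #45 with or without 4-OHT, and S33 stem cells and fibroblasts with or without doxycycline. Total RNA was labelled with biotin and read in a single colour on Affymetrix arrays.

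Both organoid arms came from #45, itself a derivative of RTC line 1, so the Apc alleles and any engineered alleles of #45 are shared by both arms. Organoids were grown in Matrigel in medium with EGF, Noggin and R-spondin. The treated organoids received 1 uM 4-OHT for 2 days, and the untreated arm received none. 4-OHT is the active metabolite of tamoxifen. It binds oestrogen receptors and is commonly used to switch on a Cre recombinase fused to a mutated oestrogen receptor domain. The genotype of #45, and what 4-OHT switches in it, are not given in the sources used here, and no arm with 4-OHT in organoids that lack such a switch was analysed here. As a model, the comparison therefore rests on 1 cell line and on 1 array per arm, with no replicate check. No test was possible between the arms, and every difference below is a difference between 2 arrays.

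The small intestinal epithelium renews itself from stem cells at the crypt base, which are held there by Wnt signals. In this pathway Wnt ligands bind Frizzled and Lrp receptors, which stops a destruction complex of Apc, Axin, Gsk3 and casein kinase from degrading beta-catenin. Beta-catenin then joins TCF/LEF factors on DNA and raises a set of target genes, several of which are inhibitors that feed back on the pathway. Away from the crypt base the cells become absorptive enterocytes or secretory Paneth, goblet, enteroendocrine and tuft cells. After injury, and in the fetal gut, the epithelium shows another programme, with Clu, Anxa1 and Ly6 genes among its markers and with the transcription factors YAP and TEAD active.

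The value of a gene is called its level, the log2 intensity after quantile normalization of all 18 arrays, and the difference is the level with 4-OHT minus the level without. A gene was compared if its level was above the array's median on at least 1 of the 2 organoid arrays and it lay on an autosome, which left 11103 genes. A gene is called higher or lower only if it differed at least 2-fold in the same direction under quantile scaling and also with each array centred on its own median. By this rule 252 genes (2.27%) were called, 217 of them higher (1.95%) and 35 lower (0.315%) with 4-OHT. The excess of higher calls moved with the scaling. Quantile scaling alone gave 228 higher and 80 lower, median centring alone 549 higher and 35 lower, and the deposited intensities 98 higher and 611 lower. The median intensity as deposited was 218 without and 142 with 4-OHT, the latter being the lowest of the 18 arrays, whose medians ran up to 317. With arrays centred on their medians, the median difference over all genes compared was 0.40, against 0.00 under quantile scaling, so a difference under median centring is to be read relative to 0.40. The part of this lower signal in the calls was not tested. Beside each list below, the count of calls is to be read against these percentages.

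The number of genes called was within the range found between arrays of a single kind, which was wide. The same rule called 366 genes (3.31%) between the 2 fibroblast (MEF) arrays without 4-OHT, and 303 (2.74%) between the 2 with it. Between RTC lines the numbers were 338, 266 and 15. Within each numbered MEF pair, with against without 4-OHT, only 47 and 37 genes were called. The standard deviation of the difference over all genes was 0.41 in the organoid pair, 0.43 between the untreated and 0.39 between the treated MEF arrays, and 0.44, 0.42 and 0.18 between RTC lines. Genes at least 4-fold apart numbered 29 in the organoid pair, 109 and 68 between MEF arrays of one group, and 39, 25 and 1 between RTC lines. By the counts under both scalings the organoid pair had fewer genes apart than MEF arrays of one group and more than RTC lines 2 and 3. Other measures differed. The organoid standard deviation lay between those of the 2 MEF comparisons. With median centring alone, 584 genes were 2-fold apart in the organoid pair, against 378 between untreated and 327 between treated MEF arrays. The labels do not say whether the 2 organoid arms were split from one culture.

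**Figure D1:**
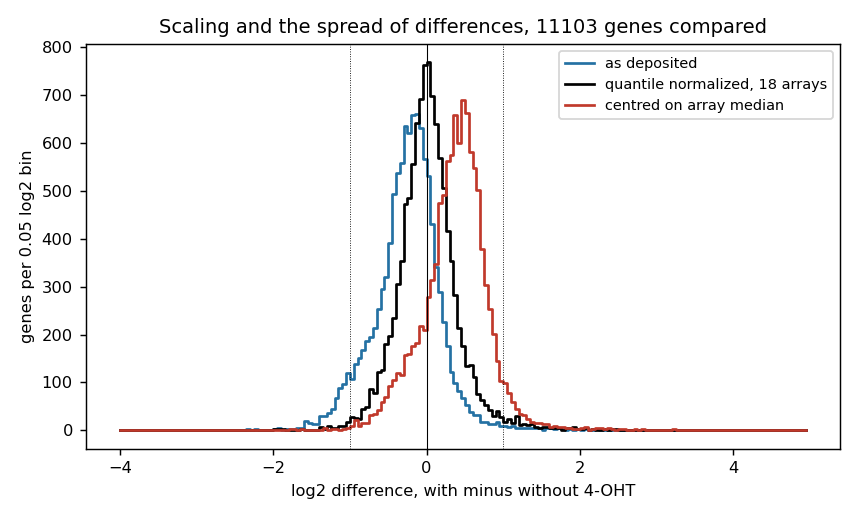
Distribution of the log2 difference with minus without 4-OHT over the 11103 genes compared, under the deposited scale (blue), quantile normalization of the 18 arrays (black) and centring on each array's median (red). Dotted lines mark a 2-fold difference. The 3 curves have nearly the same width and stand apart by their centres, at -0.23, 0.00 and 0.40.

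Markers of the labelled tissue were high on both arrays. Epcam, a surface protein of epithelial cells, was at 12.43 without and 12.45 with 4-OHT. Vil1, which bundles actin in the brush border, was at 12.22 and 12.33, and Cdh1, the epithelial cadherin, at 12.90 and 13.20. Lgr5, the receptor that marks crypt base stem cells, was at 12.59 and 13.02, and the Paneth cell lysozyme Lyz1 at 13.73 and 13.74. The arrays thus both carried epithelial, stem cell and Paneth cell transcripts. Since whole organoids were measured, fewer cells of a type and less RNA per cell cannot be told apart here or below. Pou5f1 and Nanog, which define pluripotent cells, were below the array median on both arrays.

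The largest differences were higher values with 4-OHT. Ifitm1, a small interferon-induced membrane protein, went from 6.96 to 11.58, a 24.5-fold difference. Anxa1, a calcium-dependent membrane-binding protein, went from 7.03 to 11.05 (16.3-fold). Both genes were below the array median without 4-OHT and among the brighter genes with it. The 15 largest rises also included Ly6g at 3.15 on the log2 scale, Fn1 (fibronectin) at 3.07, Sbspon at 2.78, the homeobox factor Prox1 at 2.71, the alpha-tubulin Tuba1a at 2.66 and the RNA-modifying enzyme Tut4 at 2.65. The remaining 7 were the alarmin Il33 (2.49), Rasgrp3 (2.46), the transglutaminase Tgm1 (2.42), the cytokine Tgfb3 (2.42), the secreted chaperone Clu (2.40), Efcab1 (2.34) and Tmem184c (2.31). Ly6 genes are near-identical neighbours, so the probe set annotated as Ly6g may also read its relatives.

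The genes called lower were fewer and included products of Paneth and goblet cells and several enzymes. The largest fall was Ang5, a ribonuclease of the angiogenin family, from 8.37 to 5.67 (6.51-fold). Nrn1 (neuritin), a membrane-anchored protein, went from 10.29 to 7.85 (5.42-fold). Mptx1, a mucosal pentraxin of Paneth cells, went from 9.24 to 7.05 (4.57-fold), and the alcohol dehydrogenase Adh4 from 10.96 to 8.90 (4.16-fold). Of these, Ang5 and Mptx1 have close paralogs that share sequence with them, and the family member Ang4 was at 11.10 and 10.43. The other 11 of the 15 largest falls were Cyp2c70 (-2.01), Fras1 (3.99-fold lower), Sult1c2 (-1.96), Aldh1l2 (-1.93), Ces1f (-1.91), the DNA sensor Aim2 (-1.89), Bcl2l15 (-1.87), Chac1 (-1.82), Cd1d2 (-1.69), Nqo1 (-1.63) and the goblet cell lectin Zg16 (-1.63). At the edge of the rule, with each gene taken at the smaller of its differences under the 2 scalings, Ccdc122 and Gstp3 were just past 2-fold (higher and lower) and Dennd5a (1.00 after rounding) and Dnajb8 (-0.99) just short of it. By quantile scaling alone, 11 genes past 2-fold higher and 45 past 2-fold lower were not called because median centring brought them under 2-fold, such as Irs1 (1.05 and, median centred, 0.91) and Enpep (-1.36 and -0.93).

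**Figure D2:**
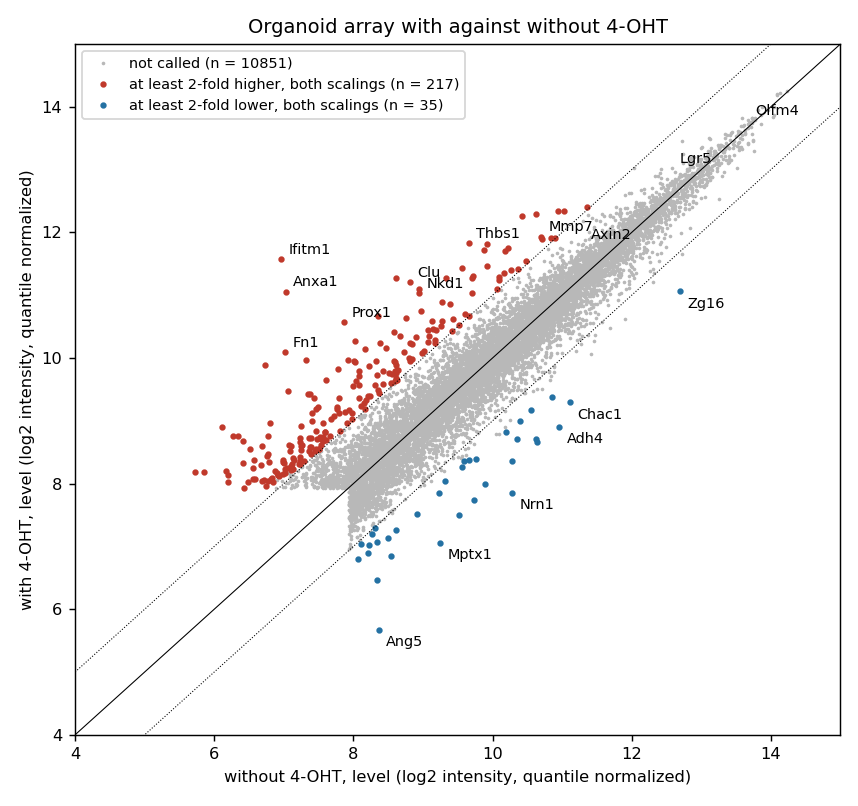
Level of each gene without 4-OHT (x axis) and with 4-OHT (y axis), both as quantile-normalized log2 intensity on 1 array each; red, called higher (217); blue, called lower (35); grey, not called. Ifitm1, Anxa1 and Fn1 stand above the dotted 2-fold line from low starting levels, while Lgr5, Olfm4 and Axin2 lie close to the diagonal.

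In the Wnt pathway no core component of the destruction complex, receptors or nuclear factors was called, while 3 of 8 compared feedback inhibitors were. Apc, the tumour suppressor and scaffold of the destruction complex, was at 10.49 without and 10.87 with 4-OHT, a difference of 0.38. The Apc probe set reports the total transcript and does not tell alleles apart. Ctnnb1, which encodes beta-catenin and is controlled mainly at the protein level, was at 12.98 and 13.02. None of 9 compared members of the destruction complex list was called (median 0.16), none of 11 nuclear factors (median 0.31; Lef1 0.69, Tcf7l2 0.46, Tcf7l1 0.36), and none of 14 receptors (median 0.10; Fzd7 0.56, Fzd5 -0.65, Lrp5 0.13, Lrp6 -0.18). Fzd1 came nearest to a call among the receptors compared, from 9.12 to 8.05 (-1.07, and -0.97 with arrays centred on their medians). Of 10 ligands and secretion genes, 1 was called, Wnt6, from 7.98 to 9.03 (1.05). Wnt3, the ligand made by Paneth cells, went from 9.01 to 9.39 and was not called.

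Of 17 feedback inhibitors on the array, 9 were dim in both arms and 8 were compared. Of these 8, 3 were called higher, none was called lower, and all 8 had a difference above 0 under quantile scaling, with a median of 0.66 (1.06 with arrays centred on their medians). Nkd1, an inhibitor that binds Dishevelled, went from 8.95 to 11.03, a 4.24-fold difference. Sfrp5, a secreted decoy that binds Wnt, went from 9.12 to 10.59 (2.76-fold), and Notum, an enzyme that removes the lipid from Wnt, from 7.50 to 8.55 (2.06-fold). The other members compared were in the same direction but short of the rule. Axin2, which is often used as a reporter of the pathway, went from 11.30 to 11.81, a difference of 0.50. The membrane ligases Rnf43 and Znrf3, which remove Frizzled from the surface, differed by 0.64 and 0.46, and Apcdd1 by 0.68. Because the members were chosen with earlier results known, and a gene passes the filter through the arm where it is high, the count describes these 2 arrays.

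Among 28 other Wnt target genes compared (of 31 on the array), 5 were called higher and none lower, and 25 differences were above 0, with a median of 0.37. Prox1, a factor that marks Wnt-driven intestinal adenomas, went from 7.86 to 10.57 (6.53-fold). Tnfrsf19 (Troy), a receptor of crypt base cells, went from 9.92 to 11.81 (3.71-fold), and the matrix protease Mmp7 (matrilysin) from 10.70 to 11.93 (2.35-fold). The transcription factors Sox4 and Sp5 went from 10.26 to 11.40 (2.21-fold) and from 9.17 to 10.28 (2.15-fold). Other well-known targets were not called. Myc was at 12.46 and 12.49, Sox9 at 12.37 and 12.40, Ccnd1 (cyclin D1) at 12.16 and 12.44, and Cd44 at 11.46 and 12.09 (0.64). Cdx1, an intestinal homeobox factor also listed as a target, was at 10.85 and 10.39.

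The promoter sequences of 3 of these genes are shown because they differ in whether they carry the core TCF/LEF sequence CTTTGAT, searched on both strands in the window from 250 bases before to 50 after the start. Coordinates and letters are RefSeq's for GRCm38.p6, written 5′ to 3′ on the gene's strand, with matches in capitals (ATCAAAG is the match on the other strand).
Sp5 (chr2:70474673-70474972, plus strand): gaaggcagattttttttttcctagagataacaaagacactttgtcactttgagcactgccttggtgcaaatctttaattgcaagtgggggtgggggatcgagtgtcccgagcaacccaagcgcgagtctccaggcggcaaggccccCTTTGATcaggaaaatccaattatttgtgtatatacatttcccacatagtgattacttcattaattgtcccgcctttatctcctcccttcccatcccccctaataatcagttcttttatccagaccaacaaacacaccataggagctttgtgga
Mmp7 (chr9:7691840-7692139, plus strand): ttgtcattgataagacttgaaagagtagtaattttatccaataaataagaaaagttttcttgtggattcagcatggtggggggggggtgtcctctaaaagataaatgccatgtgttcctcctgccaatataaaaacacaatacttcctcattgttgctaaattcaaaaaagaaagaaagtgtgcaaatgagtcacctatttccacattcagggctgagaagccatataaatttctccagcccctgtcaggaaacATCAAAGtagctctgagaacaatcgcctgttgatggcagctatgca
Nkd1 (chr8:88527383-88527682, plus strand): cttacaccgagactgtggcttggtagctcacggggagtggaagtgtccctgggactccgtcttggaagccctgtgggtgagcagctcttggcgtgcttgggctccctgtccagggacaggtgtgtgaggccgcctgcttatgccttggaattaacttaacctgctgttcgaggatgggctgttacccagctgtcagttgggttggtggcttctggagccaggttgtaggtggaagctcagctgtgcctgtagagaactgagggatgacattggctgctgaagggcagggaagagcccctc
The match lies before the start in Sp5 and just after it in Mmp7, and Nkd1, although it differed most among the inhibitors, has none in this window. Of the 9 genes of the Wnt lists called higher, 8 had a promoter in the table and 2 of those held CTTTGAT. Over all 27025 promoters 3.76% did, and 2.53% of the 8937 promoters found for the genes compared. Among the 150 promoters found for the 217 genes called higher, 6 did (4%). A match is a description of the letters, and a distal enhancer lies outside this window.

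Stem cell genes as a group did not pass the rule. Of 22 crypt base stem cell genes compared, 2 were called higher (Tnfrsf19 and Sp5, both also in the Wnt list) and 1 lower (Nrn1), with 18 differences above 0 and a median of 0.45. Lgr5 differed by 0.44, Ascl2, the factor that sets crypt base identity, by 0.55, Smoc2 by 0.38 and Olfm4 by 0.12. With arrays centred on their medians Ascl2 was at 1.03, and Lgr5 at 0.98, relative to 0.40 for all genes. Of 6 genes described in reserve stem cells, Clu was called, from 8.81 to 11.21 (5.27-fold). The other members included Bmi1 (0.67), Lrig1 (0.42) and Hopx (0.18).

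The list of fetal and regenerative epithelium had the largest share of called members among the 45 lists. Of 31 members on the array 23 were compared, 10 were called higher and none lower, and the median was 0.96 (1.30 with arrays centred on their medians). After Anxa1 came Il33, from 6.27 to 8.76 (5.63-fold), and Clu. Msln (mesothelin), a surface glycoprotein, went from 8.02 to 9.94 (3.79-fold). The keratin Krt4 went from 6.68 to 8.59 (3.76-fold) and the calcium-binding protein S100a6 from 9.71 to 11.31 (3.02-fold). Anxa3 (1.33), Gkn3 (1.19), Ly6d (1.18) and Il1rn (1.06), an antagonist of interleukin 1, completed the called members. This share leaves out 7 members dim in both arms. Anxa1, Il33, Krt4 and Ly6d were below the array median without 4-OHT and were compared only through the arm where they are high. The lists were also chosen with earlier results known, so the count and the ranking describe these 2 arrays. The same limits hold for the counts of the other lists. The list did not move as a whole. Sprr1a (-0.01), Anxa10 (-0.03), Basp1 (-0.02), Onecut2 (-0.07) and Hmga2 (-0.21), an oncofetal chromatin protein, showed differences near 0 or below it, and Gja1 and Ereg were dim on both arrays.

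Genes that respond to YAP and TEAD gave 9 calls higher and none lower among 23 compared, with a median of 0.53. Thbs1 (thrombospondin 1), a secreted matrix glycoprotein, went from 9.66 to 11.83 (4.51-fold), and the membrane repair protein Myof (myoferlin) from 7.92 to 9.98 (4.17-fold). The matricellular genes Ccn2 and Ccn1 went from 8.90 to 10.34 (2.71-fold) and from 10.85 to 11.91 (2.09-fold). Ptpn14 (1.38) and Ajuba (1.18), which act on the pathway from cell junctions, Arhgef17 (1.14) and Tead2 (1.00, one of the DNA-binding partners) were also called, and Msln belongs to both lists. Yap1 itself was at 11.14 and 11.21. Among members not called, Amotl2 differed by 0.53, Lats2 by 0.35, Gadd45b by -0.03 and Gadd45a by -0.44, and Ankrd1 was dim on both arrays.

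Promoters of 3 called genes from these lists are shown because each holds the core TEAD sequence GGAATG, here on the other strand, where it reads CATTCC (in capitals; same window, build and source as above).
Anxa1 (chr19:20390622-20390921, minus strand): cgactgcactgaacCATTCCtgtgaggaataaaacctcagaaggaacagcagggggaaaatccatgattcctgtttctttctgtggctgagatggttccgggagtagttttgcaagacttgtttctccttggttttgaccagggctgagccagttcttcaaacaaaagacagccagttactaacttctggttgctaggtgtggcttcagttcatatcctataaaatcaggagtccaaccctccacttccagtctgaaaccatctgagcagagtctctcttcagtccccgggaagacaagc
Ccn1 (chr3:145649936-145650235, minus strand): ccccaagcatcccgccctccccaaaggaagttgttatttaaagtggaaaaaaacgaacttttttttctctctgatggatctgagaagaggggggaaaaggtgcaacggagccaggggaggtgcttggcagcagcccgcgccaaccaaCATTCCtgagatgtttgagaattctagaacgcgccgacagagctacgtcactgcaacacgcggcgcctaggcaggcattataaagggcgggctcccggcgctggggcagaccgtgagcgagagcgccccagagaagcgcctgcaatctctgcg
Ajuba (chr14:54577612-54577911, minus strand): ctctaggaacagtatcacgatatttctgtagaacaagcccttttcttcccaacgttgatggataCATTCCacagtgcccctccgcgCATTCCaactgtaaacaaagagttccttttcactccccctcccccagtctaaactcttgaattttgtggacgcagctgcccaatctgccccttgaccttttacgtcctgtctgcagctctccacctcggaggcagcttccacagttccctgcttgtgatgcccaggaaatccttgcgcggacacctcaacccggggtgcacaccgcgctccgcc
All matches lie before the start, and Ajuba has 2 of them. Of 18 genes called higher in the fetal or YAP lists, 10 had a promoter in the table and 5 of those held GGAATG (Ajuba, Anxa1, Ccn1, Il33 and Ptpn14). The sequence was present in 14.7% of all promoters, in 11.9% of those of the genes compared and in 21 of the 150 promoters of all genes called higher (14%). No promoter of the 10 held CTTTGAT.

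**Figure D3:**
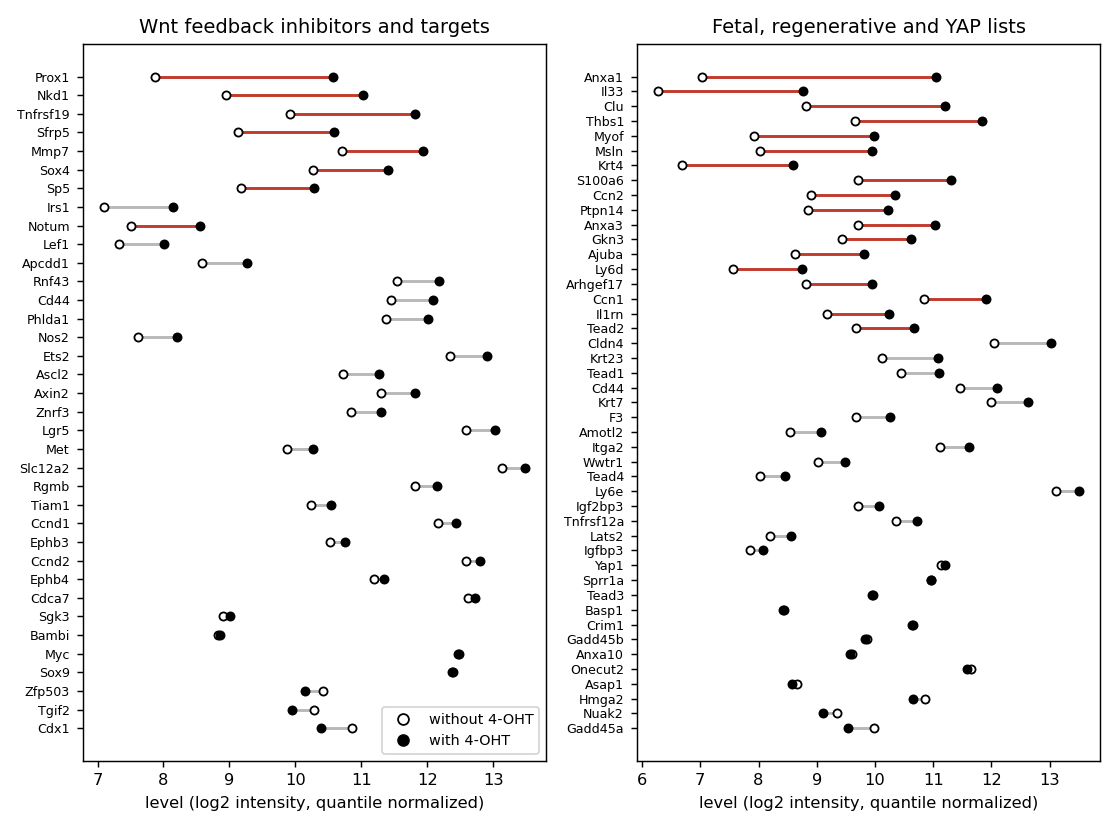
Level without 4-OHT (open circles) and with 4-OHT (filled circles) of the compared Wnt feedback inhibitors and target genes (left) and of the compared genes of the fetal, regenerative and YAP lists (right), as quantile-normalized log2 intensity on 1 array per arm, with lines red for genes called higher. Prox1 and Nkd1 lead the left panel and Anxa1 the right one, while Myc, Sox9 and Yap1 hold nearly the same level in both arms.

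Matrix and invasion genes held some of the same members. Of 11 metalloproteinases and inhibitors compared, 3 were called higher: Timp2, an inhibitor of metalloproteinases, from 8.03 to 10.27 (4.74-fold), Mmp7, and Adam8 (1.08). Fibronectin and vimentin, which mesenchymal cells make in quantity, were both higher with 4-OHT. Fn1 went from 7.02 to 10.10 (8.41-fold), still below the 12.91 to 14.09 of the other arrays of the series, and Vim went from 10.18 to 11.71 (2.88-fold). Those were the 2 calls among 11 mesenchymal markers compared, 10 more being dim. The summed level of the 11 was 12.01 without and 12.68 with 4-OHT. Their median difference was -0.42 (-0.35 with arrays centred on their medians), and only 3 of the 11 were above 0 under quantile scaling. The defining collagens were lower or near level: Col1a1 was at 8.81 and 8.10, Col1a2 at 8.35 and 7.84, and Col3a1 at 8.20 and 7.97, and Dcn and Pdgfra were dim in both arms.

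Markers of other cell types were mostly dim on both arrays. Of 21 blood and immune markers 15 were dim, including Ptprc, Csf1r and Cd79a, and none of the 6 compared was called, with summed levels of 11.47 and 11.44 (Lyz2, the brightest, is near-identical to the Paneth cell gene Lyz1). None was called among 2 endothelial markers compared (summed levels 9.30 and 9.85; Pecam1 dim) or 2 of neurons and glia (9.36 and 9.26). None was called among 3 pluripotency genes compared (10.16 and 9.97). Of 6 markers of stomach, oesophagus, pancreas and colon compared, 2 were called, the pepsinogen Pgc (1.70) and Gkn3, both genes of the stomach, with summed levels of 11.60 and 11.99. Among 138 autosomal genes at least 16-fold higher on the derivative #45 array than in untreated organoids, 11 were called higher and the median difference was 0.09. Among 339 such genes on an untreated MEF array, 33 were called higher and the median was 0.11. Those shares, 7.97% and 9.73%, stand beside 1.95% over all genes compared. The bases are unlike, since these 2 sets had no filter on dim genes and the 1.95% is over genes that passed it. The sets were chosen by low values in the untreated arm, so the counts are a description, and a part of RNA from other cells in the calls was not tested.

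Absorptive genes gave no call in any of 5 lists, and all 5 medians were below 0 under quantile scaling. In the brush border list, none of 23 compared was called (median -0.11): Alpi, the intestinal alkaline phosphatase, was at 13.26 and 13.08 and the disaccharidase Sis at 13.16 and 12.88. The peptidase Enpep, from 11.42 to 10.06, was past 2-fold lower under quantile scaling only, while Lct (0.67) and Anpep (0.59) were above 0. Of 33 transporters 8 had a difference above 0 (median -0.31; Slc5a1 -0.26, Slc15a1 -0.39). Of 24 genes of fat uptake and lipoproteins none was above 0, with a median of -0.27, including the fatty acid binding protein Fabp1 at 13.08 and 12.82 and the apolipoprotein Apoa4 at 13.74 and 13.45. For 24 other mature enterocyte genes the median was -0.41 (Ada -0.34, Krt20 -0.67), and for 26 genes of fatty acid oxidation and ketone synthesis it was -0.40 (Cpt1a -0.58). With arrays centred on their medians these medians were 0.36, 0.03, 0.17, 0.02 and -0.07, which lie below the 0.40 of all genes. The sign of 4 of the 5 medians thus depended on the scaling, and single members of the brush border list lay on both sides of the median gene.

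Few markers of the secretory lineages were called. Of 17 Paneth cell genes compared, Mmp7 and the phospholipase Pla2g2a (10.48 to 11.55, 1.07) were called higher and Mptx1 lower. Of 27 goblet cell genes S100a6 was called higher and Zg16, a lectin of the mucus layer, lower, from 12.69 to 11.06 (3.10-fold). The main mucin Muc2 was at 12.23 and 11.84 and Tff3, the trefoil peptide, at 13.40 and 13.22. None of 27 enteroendocrine genes was called (median 0.13; Chga 0.03, Neurog3 0.81, Neurod1 0.74) and none of 15 tuft cell genes (median 0.07; Dclk1 0.07, Trpm5 0.12). Of 15 antimicrobial and lectin genes, Il33, Reg3b (6.99 to 8.35, 1.36) and the chemokine Cxcl16 (8.84 to 9.98, 1.14) were called higher. Il33 and Reg3b were below the array median without 4-OHT and were compared only through the arm where they are high. Reg3g, the close relative of Reg3b, was at 10.13 and 9.97. Reg3a went from 10.18 to 9.16, past 2-fold lower under quantile scaling only (-1.02, and -0.66 with arrays centred on their medians).

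Few regulators of lineage were called. None of 35 gut transcription factors was called (median -0.08), among them Cdx2 (-0.23), Hnf4a (-0.01) and Atoh1 (-0.58), the factor of the secretory fate. The nuclear receptors Nr1h4 (-0.96) and Hnf4g (-0.84) were below 0 without a call. Of 29 Notch pathway genes, the coactivator Maml2 (1.54) and Numbl (1.08) were called higher, and Hes1 differed by 0.15. Of 22 genes of BMP signalling, which Noggin in the medium blocks, the ligand Bmp8b was called, from 8.94 to 11.10 (4.47-fold). Bmp8a is a close copy of it, and Id1, the usual readout of BMP signalling, was at 10.35 and 10.36. Of 34 genes of EGF and ERK signalling, Fosl1, a transcription factor downstream of ERK, was called (1.03), and Dusp6 and Egfr differed by 0.64 and 0.56.

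Cell division genes differed little. None of 36 replication genes (median 0.04) and none of 18 G1, Myc and inhibitor genes (median 0.03) was called. Of 45 mitotic genes 1 was called, the kinesin Kif20a, from 9.67 to 8.37 (-1.29), against a list median of 0.22 and against Mki67 at 0.28 and Top2a at 0.38. None of 31 p53 target genes was called (median 0.23), with Mdm2 at 0.69.

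Stress and metabolic lists held several of the genes called lower. Of 37 genes of the Atf4 response to amino acid shortage, Chac1, which degrades glutathione, went from 11.12 to 9.29 (3.54-fold) and the mitochondrial folate enzyme Aldh1l2 from 10.28 to 8.36 (3.81-fold). Atf3 was called higher, from 10.06 to 11.10 (1.03). The median of the list was -0.36, 6 of its differences were above 0, and Trib3 (-0.95), Psat1 (-0.47) and Asns (-0.33) were below 0 without a call. With arrays centred on their medians the list median was 0.01, beside 0.40 for all genes, so its sign depended on the scaling. Trib3 was then at -0.74, Psat1 at -0.06 and Asns at 0.18. Of 24 genes of the unfolded protein and heat shock responses, the small chaperone Hspb1 was called (1.32), and Hspa5 differed by 0.21. Of 23 interferon response genes Ifit2 (1.49) and Irf1 (1.33) were called higher, with a list median of -0.13. A further 26 members of that list were dim in both arms. Ifitm1 is not a member of the list, and its difference was larger than that of any member compared.

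Of 90 drug and hormone metabolising enzymes, 4 were called lower and 1 higher, 10 differences were above 0 and the median was -0.38 (0.03 with arrays centred on their medians). The 4 were Adh4, the sulfotransferase Sult1c2, from 10.63 to 8.67 (3.90-fold), the carboxylesterase Ces1f, from 10.62 to 8.71 (3.76-fold), and the quinone reductase Nqo1, from 10.35 to 8.72 (3.10-fold). Cyp2c29, a cytochrome P450 with close relatives, went the other way, from 10.71 to 11.90 (2.27-fold). None of 64 oxidative phosphorylation genes (median -0.19), 27 sterol genes (median -0.22) and 21 fatty acid synthesis genes (median 0.01) was called. With arrays centred on their medians these 3 medians were 0.29, 0.22 and 0.52, beside 0.40 for all genes. Hk2, a hexokinase, was the only call among 27 glycolysis genes (1.09). None of 37 junction, keratin and epithelial genes was called (median 0.05; Krt8 0.10, Krt19 -0.09).

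Genes of the oestrogen receptor itself were included because 4-OHT binds it. None of 11 compared receptors and classical targets was called (median 0.07). Esr1 was at 7.48 and 7.93, Greb1 at 9.16 and 9.78, and the progesterone receptor Pgr was dim in both arms.

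**Figure D4:**
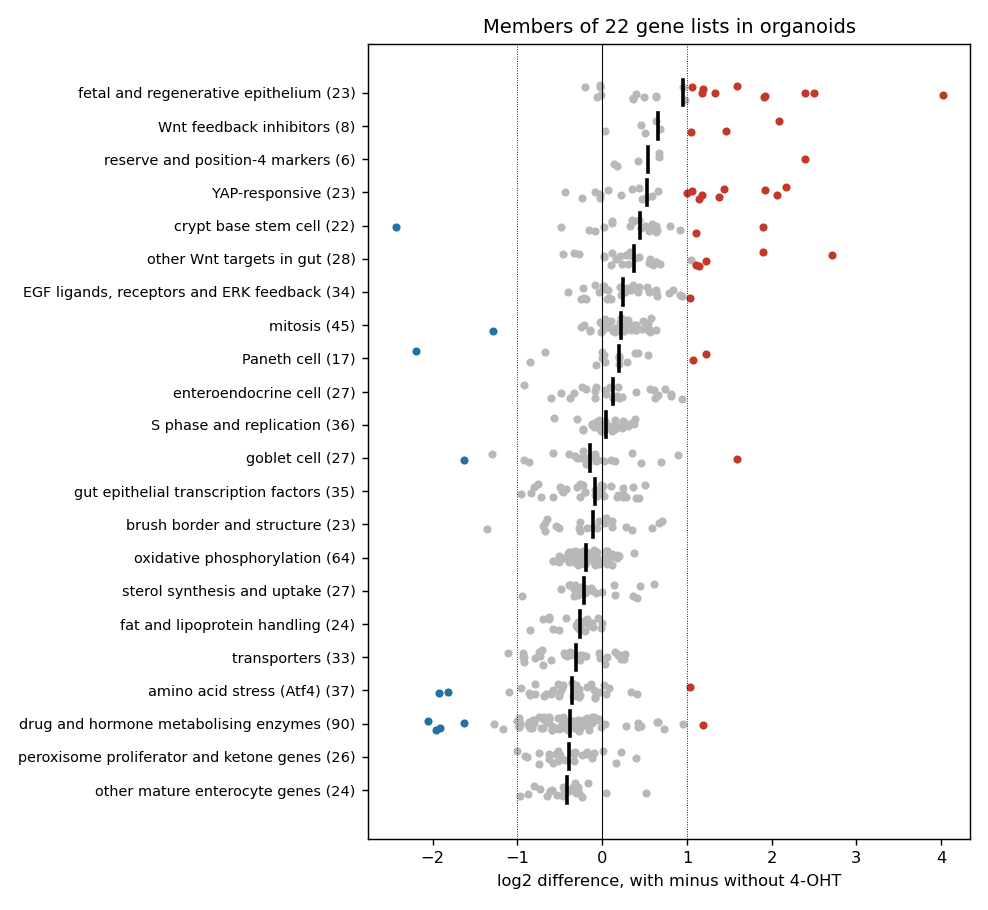
Log2 difference with minus without 4-OHT (x axis, quantile scaling) of each compared member of 22 gene lists, with the number compared in brackets; red, called higher; blue, called lower; grey, not called; black bars, list medians; dotted lines, 2-fold. The fetal and regenerative list has the highest median (0.96) and 10 red points, the 5 absorptive lists have medians from -0.41 to -0.11 with no coloured point.

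MEFs derived from the same line #45 were treated with 4-OHT at 2 ug/ml, also for 2 days, in 2 numbered pairs. The dose and its unit differ from those of the organoids, so values are set side by side without a test. Of the 217 genes called higher in organoids, none was at least 2-fold higher in both MEF pairs, 1 (Cdo1, a cysteine dioxygenase, 1.20 in organoids) was at least 2-fold lower in both (-1.04 and -1.05), and 197 differed by less than 0.5 in both. The median of the 217 was 1.33 in organoids and 0.00 and -0.00 in the MEF pairs. Of the 35 called lower, none was 2-fold apart in both MEF pairs and 32 differed by less than 0.5 in both. Over all 11103 genes compared, only 6 were at least 2-fold higher and 4 at least 2-fold lower in both MEF pairs. Such genes were rare, so their near absence among the called genes tells little. A difference below 0.5 in both MEF pairs was found for 96.2% of all genes compared. The share was 90.8% of the genes called higher and 91.4% of those called lower, so the small MEF differences are not particular to these genes.

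For single genes, Nkd1 was 2.08 in organoids and -0.62 and -0.78 in the MEF pairs. Axin2 was 0.50 in organoids and -0.02 and 0.18 in MEFs, and Lgr5 0.44 against -0.79 and -0.88. Anxa1 was 4.02 against -0.27 and -0.13, and Clu 2.40 against -0.34 and -0.18. Thbs1, which was 2.17 in organoids, was at 0.00 and -0.00 in MEFs. Sterol genes differed more in MEFs than in organoids. The list median was 1.04 and 0.59 in the MEF pairs and -0.22 in organoids under quantile scaling. With arrays centred on their medians the organoid value was 0.22, beside 0.40 for all genes, so its sign depended on the scaling. Under quantile scaling Lss, which forms lanosterol, was at 1.99 and 1.34 in MEFs against -0.28. The feedback regulator Insig1 was at 1.43 and 1.06 against -0.48. Apc itself differed by 0.19 and 0.08 in the MEF pairs and by 0.38 in organoids.

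**Figure D5:**
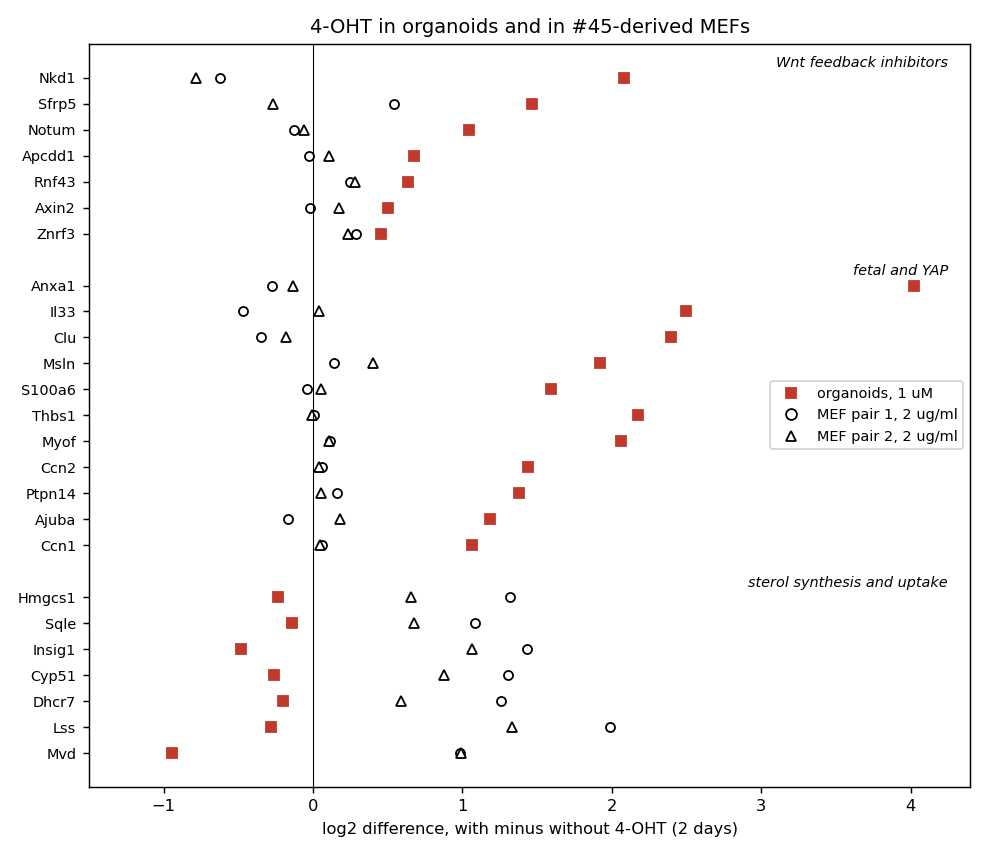
Log2 difference with minus without 4-OHT for named genes in organoids (red squares, 1 uM), MEF pair 1 (open circles) and MEF pair 2 (open triangles, both 2 ug/ml), after 2 days and under quantile scaling. The inhibitors Nkd1, Sfrp5 and Notum and the fetal and YAP genes shown lie to the right of 1 in organoids. The sterol genes shown lie to the right of 0.5 in both MEF pairs and to the left of 0 in organoids. They are a part of the 27 sterol genes compared, of which 7 were above 0 in organoids.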

How the data were processed

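RNA from 18 mouse samples was measured on Affymetrix arrays, 1 array per sample. The deposited values are linear intensities, 1 per probe set and array, as their range shows. The sources used here do not say how the authors corrected the background, summarised probes or scaled the arrays. From them, 3 probe sets without values were left out, log2 was taken and the 18 arrays were quantile normalized together. A second scaling centred each array on its median. Platform annotation gave 1 gene symbol to 21789 of 28853 probe sets, several to 1621 and none to 5443 (unnamed here). Of those with 1, 21698 matched RefSeq (GRCm38.p6). The probe set with the highest mean stood for a gene, giving 19938 genes.

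A gene was compared if above percentile 50 on at least 1 organoid array. By this filter 8087 genes were left out, and 294 more were sex-linked. Calls needed at least 2-fold under both scalings. With 1 array per arm no test was run, and the number of arrays limits precision. The steps were tested on simulated data. Named genes are the 15 largest rises and falls, fixed anchors of 45 lists, and called list members (at most 8 per direction and list); any other named gene was chosen after its values were seen. The members and lists were chosen with earlier results of these data known. Other scalings, filters, fold minimums and probe set rules were tried. Python 3.11.15, numpy 2.4.6, pandas 2.3.3 and matplotlib 3.10.9 were used.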

Additional observations from a re-analysis of the deposited data

Results flagged for a closer look

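Nkd1 was 2.08 higher with 4-OHT in the 1 organoid pair, and lower in both MEF pairs (-0.62 and -0.78). The difference between the cell types was not tested, since organoids had 1 array per arm and the doses differed. No group held enough arrays to look for single arrays that stand apart.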

How the results depend on the processing

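The count of genes called higher (217) was 549 with arrays centred on their median alone, 98 with the values as deposited, 67 with a filter at percentile 75, 698 at 1.5-fold and 62 at 3-fold. The count called lower (35) was 611 as deposited, 90 with the 2 organoid arrays quantile normalized alone, 68 with no filter on dim genes, 12 at percentile 75, 229 at 1.5-fold, 12 at 3-fold and 80 with quantile normalization alone. It was 75 with the median scaling centred on the genes compared, an alternative chosen after seeing the data. As deposited, 2780 genes differed between RTC 1 and 2, and 1381 between RTC 1 and 3. Of 254 named genes 68 were called, and none of their 272 alternative values reversed. For part of these values that was fixed in advance. Median centring is part of the rule, and deposited differences are the median-centred ones shifted by a constant of less than 2-fold. Values of called genes under those settings could not reverse. Of the 68, 18 were under 2-fold as deposited and 2 with the mean of a gene's probe sets. No paired analysis was possible because each arm had 1 array, and no replicate could be left out. Genes dim in both arms have no measured change here, and a gene called from a dim arm has an uncertain fold.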

Other observations

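Some genes called higher belong to groups not described above. They were picked after their values were seen, so the counts describe these 2 arrays. Of 26 intraflagellar transport and BBSome genes compared, which carry cargo along cilia, 4 were called higher (Ift80 1.32, Wdr35 1.29, Ift74 1.22 and Bbs7 1.06), with 23 differences above 0 and a median of 0.36. Of 14 genes of the ciliary transition zone, the gate at the base of the cilium, 3 were called higher (Rpgrip1l 1.37, Tmem67 1.35 and Iqcb1 1.08), with 10 differences above 0 and a median of 0.27. None of either group was called lower. Tmem237 of the transition zone went from 10.81 to 9.80, past 2-fold lower under quantile scaling only (-1.01, and -0.58 with arrays centred on their medians). Each of these called ciliary genes was below the array median without 4-OHT and was compared only through its level with 4-OHT. Such a gene can only show a rise, so these counts lean towards rises. In the 2 groups 8 and 3 more members on the array were not compared. Of 13 tubulins, Tuba1a, Tubb4a (1.23) and Tubb6 (1.16) were called higher, and of 10 annexins Anxa1, Anxa3, Anxa5 (1.84) and Anxa6 (1.20), with medians of 0.12 and 0.06.

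A few more genes called higher are named here, picked from the 217 after their values were seen. The vasoconstrictor peptide Edn1 went from 9.56 to 11.43, the cytokine Tnf from 7.40 to 9.12 and the chemokine Ccl2 from 6.55 to 8.25. The thrombin receptor F2r differed by 1.80 and the guidance factor Sema3c by 1.67. Snai2 (1.25), a repressor of epithelial genes, and Vgll3 (1.22), a TEAD cofactor, were called as well, while Cdh1 was 0.30 higher without a call.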
